A study of Mus musculus with 8 samples.

Results

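The open chromatin of 40 genes, listed as interferon-stimulated genes, was followed in mouse bone marrow progenitor cells. The list also holds the interferon receptor genes Ifnar1, Ifnar2, Ifngr1 and Ifngr2, and shares given for all members include them. The members were the ATAC-seq regions whose nearest RefSeq protein-coding gene within 50 kb was on that list, a rule that used position alone and no measured value. It found 108 of the 61196 regions of the series, at 32 of the 40 genes. In ATAC-seq the Tn5 transposase cuts into open DNA, and the reads counted in a region measure how open it is. Levels are given as CPM, the usual depth-scaled count of a library over all regions after TMM scaling, which evens out composition differences between libraries. The 8 libraries came from sorted cells of 4 groups named cMoP, GMP-MoP, proNeu1 and proNeu2, with 2 in each. In the field cMoP is the usual short name of the common monocyte progenitor, and proNeu names early committed neutrophil progenitors; the labels do not spell the names out. The title of the series derives GMP-MoP from proNeu1, so GMP-MoP was set against cMoP and against proNeu1. All groups are bone marrow cells; no source used here gives strain, age, genotype, treatment or sort gates.

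The libraries held 1388525 to 1907810 counts over the regions, with a median of 11 to 18 counts per region, and 3 counts corresponded to 1.58 to 2.18 CPM. Values are the mean ± SD of 2 libraries unless each library is given. Regions near 7 neutrophil marker genes summed to 304 and 318 CPM in the cMoP libraries, 348 and 356 in GMP-MoP, 828 and 846 in proNeu1 and 922 and 971 in proNeu2, and those near 6 monocyte marker genes to 605 and 637, 505 and 572, 439 and 474, and 432 and 437. Regions near plasmacytoid dendritic cell markers, the cells known for interferon production, summed to 373 and 378 CPM in cMoP, 285 and 298 in GMP-MoP, 232 and 233 in proNeu1 and 186 and 218 in proNeu2, with no region for Ly6d and a region for 3 of 4 genes. Early granulocyte and monocyte progenitor markers summed to 226 and 225 CPM in cMoP, 266 and 313 in GMP-MoP, 310.2 and 371 in proNeu1 and 421 and 386 in proNeu2. B cell markers summed to 54.3 and 61.8 CPM in cMoP and to 69.7 to 83.6 in the other libraries, with no region for Cd79a, and T and NK cell markers to 141 to 195 over all libraries with none for Cd3e, Cd3g or Cd8a. The part of these marker levels in the results at interferon-stimulated genes was not tested. The proNeu2 libraries differed from each other by little more than counting noise (chi-square per degree of freedom 1.01, against 1.30 to 1.38 in the other groups); they were kept as 2 samples, as the labels call them biological replicates, and with both summed to 1 sample the counts of called member regions were 29, 4, 19, 0 and 39 in place of 28, 4, 19, 0 and 40 in the comparisons below, in order. Whether the replicates are from different animals is not stated; the spread behind each p-value is that of the libraries and may be technical.

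Interferons are secreted signals of infection. Type I interferons bind a receptor of the chains IFNAR1 and IFNAR2, and interferon gamma binds one of IFNGR1 and IFNGR2. Janus kinases on the receptors activate STAT factors, which, alone or with an IRF partner, bind short elements in the promoters of target genes. The targets include sensors of foreign RNA and DNA, enzymes that destroy or edit RNA, GTPases that attack the compartments of pathogens, and regulators that feed back on the signal. Progenitors in the bone marrow keep some of these genes active without infection, and interferons are known to shift marrow output in infection.

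Of the 32 genes with a region, 26 had one over a listed transcription start site, 28 such regions in all. Start sites made up 25.9% of member regions and 17% of all linked regions. Of the 108 regions, 34 lay within 1 kb of a gene end, 31 in a gene body and 43 outside genes, and their median width was 890 bp against 832 bp over the series. After the filter on low counts 95 were tested. The 8 genes without a linked region were Ifit1, Ifit3, Oas2, Isg15, Iigp1, Parp9, Mx1 and Mx2, and the last pair has no protein-coding entry in the RefSeq table. A region over the start of Ifit1 and one over that of Parp9 were linked to the overlapping genes Ifit1bl2 and Dtx3l and are not among the members.

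The sequences that follow are the 250 bases before the start sites of the 8 genes whose start-site regions had the smallest p-values in the test of any difference among the groups, so that a reader can see the promoters behind the most firmly called start-site regions, which are not always those with the largest fold. They are RefSeq sequences on build GRCm38.p6, the same assembly as mm10, printed 5′ to 3′ on the gene's strand. Capitals mark every match, on either strand, to the IRF motif, which is GAAA, then 2 bases of any kind, then GAAA, the pair of half-sites bound by IRF factors, or to TTCNNNGAA, the palindrome bound by STAT dimers.
Ifngr1 (chr10:19591699-19591948, plus strand): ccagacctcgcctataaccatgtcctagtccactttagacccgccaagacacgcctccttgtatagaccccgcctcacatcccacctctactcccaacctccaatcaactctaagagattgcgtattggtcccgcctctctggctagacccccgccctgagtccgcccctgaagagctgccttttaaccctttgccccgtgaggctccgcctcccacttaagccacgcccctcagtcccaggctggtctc
Ifnar1 (chr16:91484965-91485214, plus strand): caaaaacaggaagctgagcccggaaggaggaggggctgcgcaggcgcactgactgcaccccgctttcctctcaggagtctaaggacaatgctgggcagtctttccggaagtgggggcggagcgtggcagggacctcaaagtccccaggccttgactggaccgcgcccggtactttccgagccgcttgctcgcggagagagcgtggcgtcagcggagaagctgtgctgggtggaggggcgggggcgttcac
Ifngr2 (chr16:91546809-91547058, plus strand): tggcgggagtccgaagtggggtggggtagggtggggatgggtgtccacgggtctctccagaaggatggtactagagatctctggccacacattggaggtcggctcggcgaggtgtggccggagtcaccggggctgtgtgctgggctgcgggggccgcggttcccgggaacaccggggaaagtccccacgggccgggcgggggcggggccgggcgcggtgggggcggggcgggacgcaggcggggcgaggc
Ddx58 (chr4:40239826-40240075, minus strand): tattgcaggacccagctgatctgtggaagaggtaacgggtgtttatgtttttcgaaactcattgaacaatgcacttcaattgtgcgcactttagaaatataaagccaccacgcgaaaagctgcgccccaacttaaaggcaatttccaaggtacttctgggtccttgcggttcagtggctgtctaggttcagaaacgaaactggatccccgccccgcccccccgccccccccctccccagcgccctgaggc
Gbp5 (chr3:142496684-142496933, plus strand): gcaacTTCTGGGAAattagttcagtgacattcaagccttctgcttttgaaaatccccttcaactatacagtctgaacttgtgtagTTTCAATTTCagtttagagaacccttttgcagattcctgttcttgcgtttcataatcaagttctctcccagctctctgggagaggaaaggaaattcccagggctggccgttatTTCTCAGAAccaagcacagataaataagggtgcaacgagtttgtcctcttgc
Oasl1 (chr5:114922990-114923239, plus strand): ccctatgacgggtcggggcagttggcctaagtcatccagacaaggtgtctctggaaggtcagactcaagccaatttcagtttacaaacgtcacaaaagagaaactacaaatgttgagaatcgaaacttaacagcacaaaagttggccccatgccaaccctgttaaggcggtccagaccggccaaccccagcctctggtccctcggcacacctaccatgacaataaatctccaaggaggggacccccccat
Stat2 (chr10:128270248-128270497, plus strand): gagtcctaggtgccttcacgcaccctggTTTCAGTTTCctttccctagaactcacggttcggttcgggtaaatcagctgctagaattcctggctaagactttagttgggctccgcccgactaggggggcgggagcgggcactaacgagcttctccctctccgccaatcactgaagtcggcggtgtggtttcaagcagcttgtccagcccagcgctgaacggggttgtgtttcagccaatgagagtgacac
Samhd1 (chr2:157135097-157135346, minus strand): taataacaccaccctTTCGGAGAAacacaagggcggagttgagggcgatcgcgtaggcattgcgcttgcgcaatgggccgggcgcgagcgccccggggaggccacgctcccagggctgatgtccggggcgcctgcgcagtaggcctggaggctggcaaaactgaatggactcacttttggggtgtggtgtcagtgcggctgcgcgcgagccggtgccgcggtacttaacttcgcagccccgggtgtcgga
For contrast, 2 promoters that hold the IRF motif but whose regions did not differ among the groups past the test are shown, chosen after their values were seen. In Oas1a the capitals at the 3′ end are 2 overlapping matches.
Oas1a (chr5:120907526-120907775, minus strand): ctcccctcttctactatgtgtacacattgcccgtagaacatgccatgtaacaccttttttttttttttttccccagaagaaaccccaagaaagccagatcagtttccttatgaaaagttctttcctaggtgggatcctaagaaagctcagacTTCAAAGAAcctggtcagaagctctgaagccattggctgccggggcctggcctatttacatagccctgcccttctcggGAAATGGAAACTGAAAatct
Rsad2 (chr12:26456453-26456702, minus strand): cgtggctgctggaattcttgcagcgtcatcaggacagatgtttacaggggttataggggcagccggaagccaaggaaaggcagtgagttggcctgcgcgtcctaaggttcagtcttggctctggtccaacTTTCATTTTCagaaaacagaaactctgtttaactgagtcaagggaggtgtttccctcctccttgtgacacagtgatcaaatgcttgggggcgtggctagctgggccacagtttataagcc
Among the 8 printed first, the promoters of the receptors Ifngr1, Ifnar1 and Ifngr2 and those of Ddx58 and Oasl1 held neither motif in these letters. Stat2 and Gbp5 held the IRF motif, and Gbp5 and Samhd1 the STAT motif.

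Of the members, 31 had a promoter in the RefSeq table. The IRF motif occurred in 13 of them (41.9%), against 3.46% of the 27025 genes in the table and 2.98% of all promoters of the same length. TTCNNNGAA occurred in 8 (25.8%), against 8.13% of genes and 7.02% of promoters. Interferon-stimulated genes are known for these elements, and the letters alone do not show binding. The IRF motif was found in 3 of the 12 genes whose start-site region differed among the groups and in 6 of the 14 whose region was not called.

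Start-site levels were compared per kb of region, since wider regions gather more counts. The receptor gene Ifngr1 was highest at 86.8 CPM per kb over all libraries, above 96.1% of all start-site regions in the series, followed by Ifnar1 at 69.2. Next came Stat2, a transcription factor gene of type I interferon signalling, at 44.5 and a start site of Trim30a, an E3 ligase gene that restrains Toll-like receptor signalling, at 42.7. The lowest were Adar, the RNA-editing deaminase gene, at one of its start sites (8.71), Ddx58, which encodes the RNA sensor RIG-I (7.86), and Oas1a, an oligoadenylate synthetase gene (7.5). Ifngr1 stood above Ifnar1 in each of the 8 libraries, although their ranges, 59.2 to 124.7 and 41.5 to 87.2 CPM per kb, overlapped across groups. The order of Stat2, Trim30a, Ifih1, Ifngr2 and Gbp3, between 38.9 and 44.5, was within the spread of their libraries. The member median was 19.4 CPM per kb against 29.2 over all start-site regions, with 9 of 28 member regions above the latter.

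**Figure D1:**
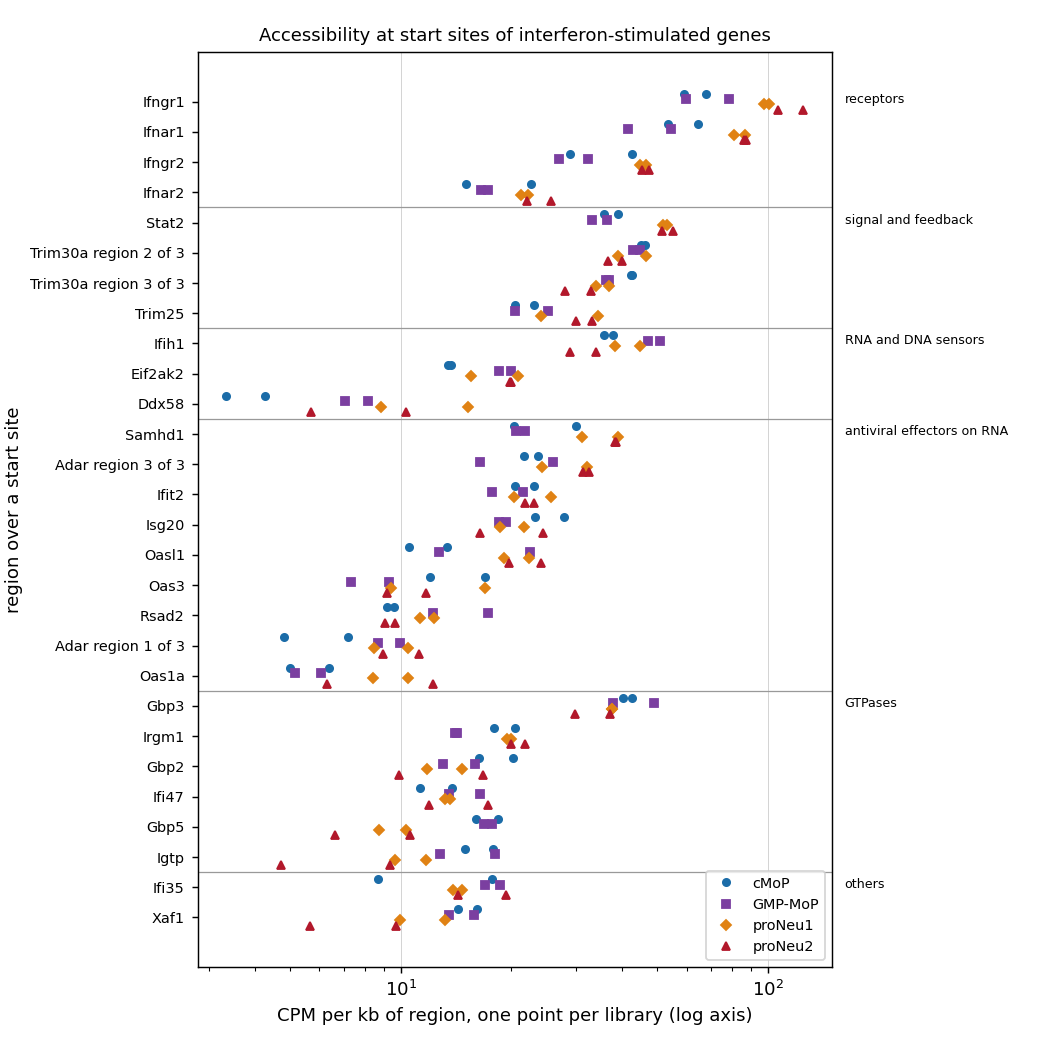
CPM per kb of region (log axis) at the 28 regions over a start site of an interferon-stimulated gene, one point per library, grouped by role. Ifngr1 and Ifnar1 lie at the right with both proNeu groups above the other libraries, Gbp5 shows the opposite order, and at most of the other genes the groups overlap.

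The first comparison asked how proNeu1 differs from cMoP. Receptor genes (13 of 24 tested regions, 54.2%) and signal and feedback genes (6 of 11, 54.5%) held most of the called regions. Antiviral effectors (2 of 21, 9.52%) and GTPases (2 of 16, 12.5%) held few, where 42.4% of all tested regions of the series were called. The receptor share and the signal and feedback share rest on 4 genes each. In all, 28 of 95 tested regions passed the edgeR quasi-likelihood test at an adjusted p under 0.05 (29.5%), against 42.4% of all 47506 tested regions, a lower share than in the series as a whole. Of these, 16 were higher and 12 lower in proNeu1, against 20.6% and 21.9% of all regions, and they lay at 15 genes. The member median was a log2 difference of 0.135 and that of all regions 0.022. The split depended on the scaling: it was 12 higher and 15 lower both with total counts in place of TMM, which moved the median of all regions from 0.02 to -0.08, and with offsets that vary with abundance (loess). At start sites 6 regions were higher and 1 lower of 28, where 36.3% of all start-site regions were higher and 6.78% lower. Start sites took 36.0 and 38.5% of the counts in the cMoP libraries, 37.9 and 40.3% in GMP-MoP, 43.9 and 44.5% in proNeu1 and 44.5 and 44.9% in proNeu2; the part of this shift in the start-site results was not tested. In these bulk libraries fewer cells with a region open and a less open region in each cell cannot be told apart.

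The 4 receptor genes had 13 called regions of 24 tested, 8 higher and 5 lower in proNeu1. The region over the start of Ifngr1, the ligand-binding chain of the interferon gamma receptor (mm10 chr10:19591110-19592474), was the highest of all member regions. Its libraries had 92.5 and 80.8 CPM in cMoP, 106.7 and 81.6 in GMP-MoP, 133 and 137 in proNeu1, and 170.3 and 145 in proNeu2. Both proNeu groups lay above every library of the other groups. The difference between proNeu1 and cMoP was a log2 of 0.64 (SE 0.140, adjusted p = 5.2e-05). Downstream of the gene, 21846 bp from its start, a weaker region rose by a larger factor, from 11.2 ± 3.91 CPM in cMoP to 30.4 ± 5.93 in proNeu1 (log2 1.44, SE 0.280, adjusted p = 5.28e-06), with 16.0 ± 0.986 in GMP-MoP and 35.6 ± 3.11 in proNeu2. In the other direction, a region 44332 bp upstream fell from 10.96 ± 5.79 to 2.40 ± 1.396 CPM (log2 -2.14, adjusted p = 0.000507). A small region in the gene body had 2 counts in the cMoP libraries together and 15 in proNeu1, a ratio of 9.93 with a 95% exact counting interval of 2.31 to 89.5 that covers counting error only.

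At the type I receptor genes the pattern was mixed between regions of 1 gene. The region over the start of Ifnar1 (chr16:91484568-91485770) had 77.4 and 64.4 CPM in cMoP, 65.4 and 49.9 in GMP-MoP, 104.1 and 97.0 in proNeu1 and 103 and 105 in proNeu2. The proNeu libraries did not overlap with the others, at a log2 of 0.50 between proNeu1 and cMoP (SE 0.152, adjusted p = 0.00386). A region 29110 bp upstream of Ifnar1 went the other way, at 10.8 and 15.8 CPM in cMoP, 5.81 and 3.97 in GMP-MoP, 0.708 and 2.71 in proNeu1 and 3.04 and 2.66 in proNeu2 (log2 -2.89, SE 0.551, adjusted p = 3.48e-06). Its proNeu1 libraries were near the CPM of 3 counts, so the size of the fall is uncertain. Beyond the gene, regions 27086 and 37519 bp from the start rose in proNeu1 by a log2 of 0.96 and 0.38 (adjusted p = 0.0272 and 0.0356).

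The start of Ifnar2, the other chain of that receptor, did not differ past the test (27.8 ± 7.89 CPM in cMoP, 24.9 ± 0.734 in GMP-MoP, 31.9 ± 0.976 in proNeu1, 35.1 ± 3.66 in proNeu2; adjusted p = 0.499). The difference stood at a region 5670 bp upstream (chr16:91366400-91367826), with 42.5 and 34.3 CPM in cMoP, 43.6 and 45.9 in GMP-MoP, 64.5 and 84.1 in proNeu1 and 80.9 and 90.3 in proNeu2. Again both proNeu groups lay above all other libraries (log2 0.95, SE 0.179, adjusted p = 2.41e-06). A stronger region 17711 bp upstream of Ifnar2 was not called, at 92.0 ± 12.9 CPM in cMoP and 96.5 ± 13.2 in proNeu1 (adjusted p = 0.726), and one 25078 bp upstream fell from 8.80 ± 1.24 to 2.80 ± 2.05 CPM (log2 -1.64, adjusted p = 0.00871).

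At Ifngr2, the second chain of the gamma receptor, the start-site region had 91.4 and 61.8 CPM in cMoP, 69.0 and 57.8 in GMP-MoP, 95.6 and 99.7 in proNeu1 and 102 and 96.9 in proNeu2. The rise from cMoP to proNeu1 was at the limit of the test (log2 0.35, SE 0.152, adjusted p = 0.0487) and became -0.02 with loess offsets. A region in the gene body fell (7.47 ± 1.60 to 1.42 ± 2.00 CPM, log2 -2.36, adjusted p = 0.00358), as did one 8631 bp upstream (17.9 ± 3.62 to 9.71 ± 0.297, log2 -0.87, adjusted p = 0.0263). The gene-body region had 2.83 and 0 CPM in proNeu1, so the size of its fall is uncertain. With loess offsets its log2 was -0.85. The falls 44332 bp upstream of Ifngr1 and 25078 bp upstream of Ifnar2 are uncertain in size too, with a proNeu1 library below the CPM of 3 counts. Ifnar2, Ifnar1 and Ifngr2 lie near each other on chromosome 16, with Il10rb between Ifnar2 and Ifnar1, so a region there is linked to the nearest of these genes and not shown to act on it.

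DESeq2 called 14 of the 28 member regions. Of the receptor calls, those at the Ifngr1 downstream region, the upstream region of Ifnar2 at 5670 bp and the upstream region of Ifnar1 held in each alternative run. Loess offsets, which take out a trend with abundance, ended the calls at the starts of Ifngr1, Ifnar1 and Ifngr2, at Ifnar1 37519 bp downstream, and at the lower Ifngr2 regions; the log2 values at the starts of Ifngr1 and Ifnar1 were then 0.23 and 0.13. Besides the receptor calls that held in each alternative run, DESeq2 kept those at the start and 44332 bp upstream of Ifngr1 and no other. Leaving out cMoP replicate 1 ended the calls at the lower regions of Ifngr1, Ifnar2 and Ifngr2, and leaving out cMoP replicate 2 those at the starts of Ifnar1 and Ifngr2, the Ifngr1 gene body and the regions downstream of Ifnar1. Without proNeu1 replicate 1 the calls at the start of Ifngr2, downstream of Ifnar1 and 8631 bp upstream of Ifngr2 ended, and without proNeu1 replicate 2 those at the start of Ifngr2, both lower Ifngr2 regions, the Ifngr1 gene body and the lower region of Ifnar2.

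**Figure D2:**
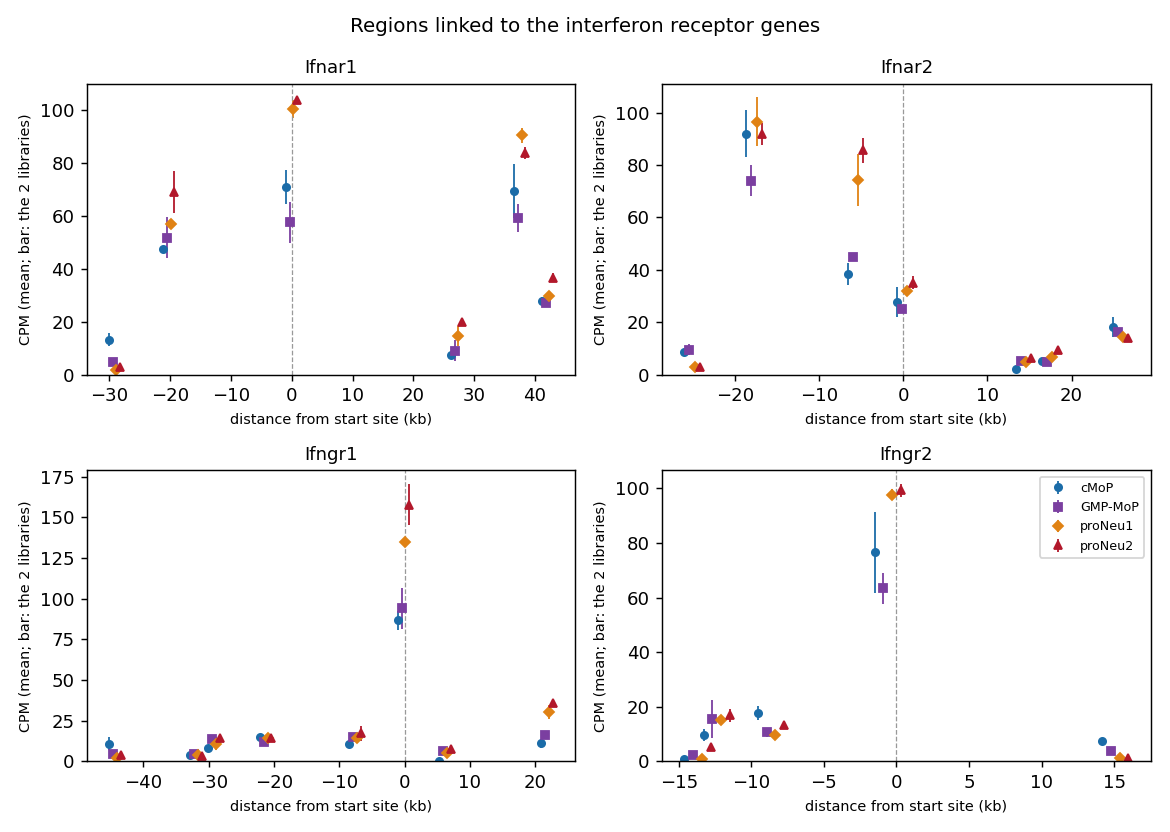
Mean CPM at each region linked to the 4 interferon receptor genes, placed by distance from the start site in kb with groups set slightly apart for legibility; bars span the 2 libraries. At the starts of Ifnar1, Ifngr1 and Ifngr2 and 5670 bp upstream of Ifnar2 both proNeu groups lie above cMoP and GMP-MoP by mean, while the region 29110 bp upstream of Ifnar1 is highest in cMoP.

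Among signal and feedback genes 6 of 11 tested regions were called, 3 higher and 3 lower. Trim25, whose E3 ligase product activates RIG-I, held the 2 smallest p-values of all members, in opposite directions. In its gene body (chr11:89006094-89007115) the libraries had 5.91 and 2.11 CPM in cMoP, 6.54 and 5.67 in GMP-MoP, 20.5 and 23.1 in proNeu1 and 26.2 and 27.9 in proNeu2. Every proNeu library was above 20 CPM and no other above 7 (log2 2.43, SE 0.382, adjusted p = 2.01e-08). Beyond the gene's end (chr11:89023950-89024913) the order was reversed, with 27.4 and 29.0 CPM in cMoP, 21.1 and 12.5 in GMP-MoP, 7.08 and 6.10 in proNeu1 and 6.08 and 2.66 in proNeu2 (log2 -2.09, SE 0.335, adjusted p = 3.61e-08). GMP-MoP lay between the other groups there. The Trim25 start site itself was not called (31.4 ± 2.67 and 42.1 ± 10.5 CPM, adjusted p = 0.0900).

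Stat2 rose at both of its regions. In the gene body it had 3.76 and 3.70 CPM in cMoP, 8.71 and 5.102 in GMP-MoP, 17.7 and 12.9 in proNeu1 and 16.4 and 19.3 in proNeu2 (log2 2.01, SE 0.425, adjusted p = 2.97e-05). At the start site the change was smaller, from 45.5 ± 2.80 to 63.8 ± 0.971 CPM (log2 0.48, adjusted p = 0.0196). Usp18, the protease that removes ISG15 and blocks IFNAR2 signalling, fell at 2 regions in its gene body. The first had 19.9 and 20.6 CPM in cMoP and at most 9.21 in any other library (log2 -1.34, SE 0.347, adjusted p = 0.000720). The second had 22.9 ± 1.80 CPM in cMoP, 18.9 ± 9.15 in GMP-MoP, 8.997 ± 0.705 in proNeu1 and 9.82 ± 0.738 in proNeu2 (log2 -1.34, adjusted p = 0.00028). Regions at either end of Usp18 were not called (adjusted p = 0.0548 and 0.586), nor were the 2 start sites of Trim30a (62.1 ± 1.08 and 58.0 ± 7.16 CPM, and 64.2 ± 0.301 and 53.8 ± 3.11, in cMoP and proNeu1; adjusted p = 0.670 and 0.232). The Stat2 start-site call ended with DESeq2, with total counts, with loess offsets, and without cMoP replicate 1 or proNeu1 replicate 1, and the first Usp18 call ended with DESeq2.

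Sensor genes had 4 called regions of 18, 3 higher and 1 lower. In the body of Ddx58 the proNeu1 libraries had 10.6 and 10.9 CPM and the cMoP libraries 1.08 and 0, with 3.63 and 2.27 in GMP-MoP and 6.08 and 9.96 in proNeu2. The cMoP libraries held 2 counts together against 31, a ratio of 20.5 with a counting interval of 5.22 to 177 (edgeR adjusted p = 4.32e-07). At the Ddx58 start site the level rose from 5.38 and 6.86 CPM to 14.2 and 24.4, with 13.1 and 11.3 in GMP-MoP and 9.12 and 16.6 in proNeu2 (log2 1.65, SE 0.362, adjusted p = 5.8e-05). Dhx58, which encodes LGP2, a relative of RIG-I, rose at 1 of 4 regions (11.7 ± 3.17 to 22.4 ± 5.68 CPM, adjusted p = 0.00667), a call that ended with DESeq2, without cMoP replicate 2 and without proNeu1 replicate 2. A region at one end of Zbp1, the gene of a sensor of Z-form nucleic acids, fell from 41.9 and 50.1 CPM to 24.8 and 26.5, with 47.9 and 35.7 in GMP-MoP and 29.8 and 20.6 in proNeu2 (log2 -0.84, SE 0.218, adjusted p = 0.000672). Ifih1, the MDA5 gene, was not called at any of its 5 tested regions; its start site had 48.2 ± 2.01 CPM in cMoP and 54.5 ± 6.08 in proNeu1. Eif2ak2, the gene of the RNA-activated kinase PKR, had 20.8 ± 0.269 and 27.8 ± 5.75 CPM at its start (adjusted p = 0.172).

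Antiviral effector genes had 2 called regions of 21. The start of Oasl1, an oligoadenylate synthetase-like gene, rose from 26.9 and 21.1 CPM in cMoP to 38.2 and 44.8 in proNeu1, with 45.0 and 25.5 in GMP-MoP and 39.5 and 48.5 in proNeu2 (log2 0.79, SE 0.224, adjusted p = 0.00197, not called by DESeq2). A region at the far end of the Oas3 gene held 3 counts in cMoP and 21 in proNeu1, a ratio of 9.27 (counting interval 2.77 to 48.5). The other effectors were given no call. At their start sites Ifit2, which binds foreign RNA, had 25.9 ± 2.22 CPM in cMoP and 27.3 ± 4.55 in proNeu1, Isg20, an exonuclease gene, 60.2 ± 7.56 and 47.5 ± 4.88, Rsad2, the viperin gene, 8.25 ± 0.270 and 10.4 ± 0.662, and Samhd1, a nucleotide hydrolase gene, 27.5 ± 7.51 and 38.2 ± 6.07 (adjusted p = 0.809, 0.118, 0.522 and 0.0709).

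GTPase genes had 2 called regions of 16, both lower in proNeu1. A region 17056 bp from the start of Gbp3, a guanylate-binding protein gene, had 13.4 and 15.8 CPM in cMoP, 5.08 and 4.54 in GMP-MoP, 2.83 and 0.678 in proNeu1 and 0.608 and 1.33 in proNeu2. Both cMoP libraries exceeded all others (log2 -3.02, SE 0.540, adjusted p = 7.05e-07), although the start of Gbp3 was not called (51.7 ± 2.17 and 46.8 ± 0.0388 CPM, adjusted p = 0.561). The proNeu1 libraries of the distant Gbp3 region were near the CPM of 3 counts, so the size of its fall is uncertain. The start of Gbp5, which restricts viruses and assists inflammasome assembly, fell from 22.0 and 25.3 CPM to 12.04 and 14.2, with 23.2 and 24.4 in GMP-MoP and 9.12 and 14.6 in proNeu2 (log2 -0.84, SE 0.291, adjusted p = 0.0124). It was the 1 lower region among the 28 at member start sites, where 6.78% of all start-site regions of the series were lower. The Gbp5 call ended without cMoP replicate 2, without proNeu1 replicate 1 and with DESeq2. Over all 19 GTPase regions the summed level was 333 and 330.4 CPM in cMoP, 325 and 332 in GMP-MoP, 288 and 271 in proNeu1 and 269 and 266 in proNeu2. For the 26 receptor regions it was 760.1 and 618, 714 and 589.6, 844 and 892, and 978 and 929, so in every proNeu library the GTPase sum was lower, and the receptor sum higher, than in any cMoP or GMP-MoP library. The sum over the antiviral effector regions was also higher in every proNeu library (355 to 388 CPM, against 292 to 352 in the others). So was that over all 108 member regions (2213 to 2270 against 1846 to 2104). The sums of the signal and feedback, sensor and remaining genes overlapped between these libraries. The 9185 start-site regions of the whole series separated these libraries too. They took 43.9 to 44.9% of the counts in the proNeu libraries and 36.0 to 40.3% in the others. The part of this shift in the sums by role and over all members was not tested. Among the remaining genes only a region in the body of Ifi44 was called (7.98 ± 2.16 to 2.45 ± 1.55 CPM, log2 -1.69, adjusted p = 0.0145), a call that ended without cMoP replicate 2, without proNeu1 replicate 2, with DESeq2 and with loess offsets. A proNeu1 library of that region lay below the CPM of 3 counts, so the size of the fall is uncertain.

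**Figure D3:**
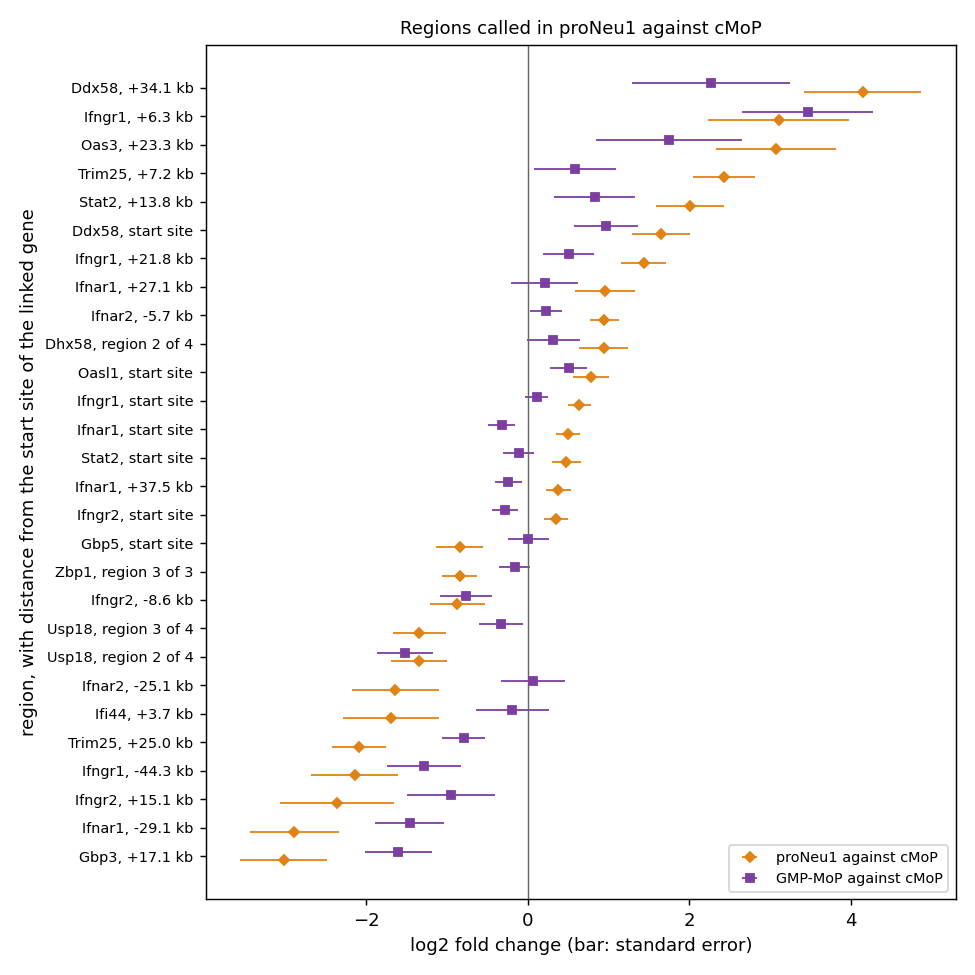
Log2 fold change with its standard error at the 28 regions called in proNeu1 against cMoP, with the change in GMP-MoP against cMoP at the same regions beside it; the comparisons share the cMoP libraries. The fitted values of Ddx58 at +34.1 kb, Ifngr1 at +6.3 kb and Oas3 at +23.3 kb rest on 2 or 3 cMoP counts and depend on the fit's prior count.

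Between GMP-MoP and cMoP few of these regions were called, as over the series as a whole. Of the 95 regions 4 were called (4.21%), against 5.45% of all regions; 1 was higher and 3 were lower, where 1.98% and 3.47% of all regions were. No start-site region of the 28 was called, where 0.598% of all start-site regions were higher and 0.778% lower. The first Usp18 gene-body region fell from 20.2 ± 0.492 CPM to 7.03 ± 0.324, the level of the proNeu groups (log2 -1.52, SE 0.349, adjusted p = 0.00173). The region beyond Gbp3 fell from 14.6 ± 1.69 to 4.81 ± 0.387 (log2 -1.60, SE 0.417, adjusted p = 0.00735), and that upstream of Ifnar1 from 13.3 ± 3.60 to 4.89 ± 1.30 (log2 -1.46, adjusted p = 0.0190). In the Ifngr1 gene body GMP-MoP held 21 counts against 2, a ratio of 12.6 (counting interval 3.08 to 111). Each of the 4 calls ended with DESeq2 and without GMP-MoP replicate 2, all but that of Usp18 without cMoP replicate 2, and that of Ifnar1 without GMP-MoP replicate 1 too; 21 of the 95 regions had an unadjusted p under 0.05.

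Set against proNeu1, the group named as its origin, GMP-MoP had 19 called regions of 95, against 24.1% of all regions. They lay at 14 genes, 7 higher and 12 lower in GMP-MoP, against 11.6% and 12.5% of all regions; the split was 9 and 11 with total counts, which moved the median of all regions from 0.01 to 0.14, and 8 and 7 with loess offsets. Receptor genes made up 7 of the calls, 6 of them lower. That is 7 of 24 tested receptor regions (29.2%), near the 24.1% of all regions. The start of Ifnar1 was lower at 57.6 ± 10.9 CPM against 100.5 ± 5.04 (log2 -0.82, SE 0.163, adjusted p = 3.31e-05), and so were the starts of Ifngr2 (63.4 ± 7.89 and 97.7 ± 2.89, log2 -0.63, adjusted p = 0.00144) and Ifngr1 (94.2 ± 17.8 and 135 ± 2.73, log2 -0.54, adjusted p = 0.00240). The GMP-MoP libraries lay below both proNeu1 libraries at each. The regions upstream of Ifnar2, 37519 bp from the start of Ifnar1 and downstream of Ifngr1 were lower by a log2 of -0.73, -0.62 and -0.93 (adjusted p = 0.00101, 0.00234 and 0.00560). At start sites in all, 1 member region was higher and 5 were lower, where 3.47% and 26.9% of all start-site regions were.

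The Trim25 regions stood apart in GMP-MoP from proNeu1 in both directions. The gene-body region was lower (6.10 ± 0.612 and 21.8 ± 1.78 CPM, log2 -1.84, SE 0.366, adjusted p = 3.63e-05) and the region beyond the gene higher (16.8 ± 6.07 and 6.59 ± 0.692, log2 1.30, adjusted p = 0.00704). Stat2 was lower at its start (42.3 ± 2.86 and 63.8 ± 0.971, adjusted p = 0.0108) and in its body (6.91 ± 2.55 and 15.3 ± 3.41, adjusted p = 0.0173), and Ddx58 was lower in its body (2.95 ± 0.964 and 10.7 ± 0.161, log2 -1.88, adjusted p = 0.00525). The second Usp18 region was higher (log2 1.01, adjusted p = 0.0227), as were the region at one end of Zbp1 (log2 0.68, adjusted p = 0.0182), the start of Gbp5 (log2 0.85, adjusted p = 0.0250) and the region 25078 bp upstream of Ifnar2 (log2 1.71, adjusted p = 0.0135). By group mean GMP-MoP was nearer to cMoP than to proNeu1 at these regions of Usp18, Zbp1, Gbp5 and Ifnar2. These regions were named for a difference from proNeu1, a choice that itself favours this order, so no conclusion is drawn from it. However, GMP-MoP replicate 2 was nearer to proNeu1 at Usp18 (12.5 CPM) and at Zbp1 (35.7 CPM).

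Regions at 4 genes differed between GMP-MoP and proNeu1 but not past the test between proNeu1 and cMoP. Downstream of Rsad2, 16878 bp from its start, GMP-MoP had 14.5 and 11.9 CPM against 3.54 and 5.43 in proNeu1, with 9.14 and 9.50 in cMoP and 3.65 and 4.65 in proNeu2 (log2 1.52, SE 0.448, adjusted p = 0.00651). Outside Ifi47, an immunity-related GTPase gene, it had 12.3 and 22.1 CPM against 7.79 and 6.78 (log2 1.28, adjusted p = 0.00703), above the 11.8 and 7.92 of cMoP. At one end of Parp14, the gene of an ADP-ribosyltransferase, it was lower at 13.1 and 10.8 CPM against 26.9 and 23.1 (log2 -1.08, adjusted p = 0.00427), and cMoP had 19.9 and 15.3. The start of Samhd1 was lower too (23.2 ± 0.919 and 38.2 ± 6.07, log2 -0.71, adjusted p = 0.0169).

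In this comparison the calls at the start of Ifnar1 and in the body of Trim25 were the only ones of the 19 kept in each alternative, DESeq2 included. Loess offsets ended the calls at the starts of Ifngr1, Ifngr2, Stat2 and Samhd1, 37519 bp from the start of Ifnar1 and 5670 bp upstream of Ifnar2; the log2 values at the first 3 starts were then -0.19, -0.31 and -0.31. Leaving out GMP-MoP replicate 2 left 8 calls and leaving out proNeu1 replicate 2 left 10. The former ended those at the starts of Ifngr1, Ifngr2, Stat2, Samhd1 and Gbp5, downstream of Ifnar1 and Ifngr1, in the bodies of Stat2 and Ddx58 and at Parp14 and Ifi47. The latter ended those at both regions upstream of Ifnar2, downstream of Ifngr1, at the Stat2 and Gbp5 starts, at Zbp1, Usp18, Ifi47 and beyond Trim25. Without GMP-MoP replicate 1 the calls beyond Trim25, at Usp18, Zbp1, Gbp5, Samhd1 and 25078 bp upstream of Ifnar2 ended, and without proNeu1 replicate 1 those at Rsad2, Parp14, Stat2, Samhd1, Zbp1, Usp18 and Gbp5.

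**Figure D4:**
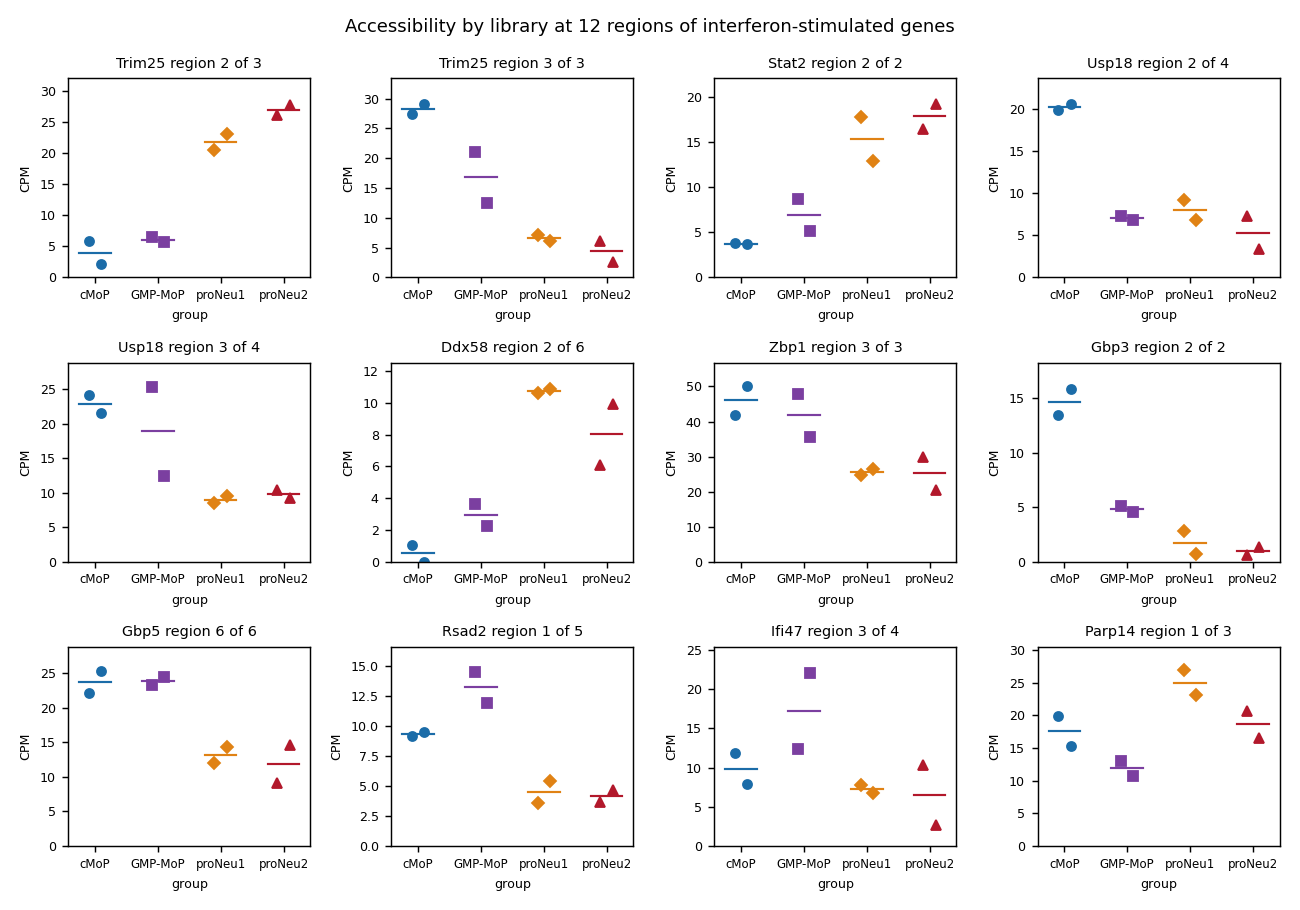
CPM in each library at 12 regions of interferon-stimulated genes; points are libraries and lines are group means, with a separate axis from 0 for each region. The Trim25 pair shows opposite orders of the groups, Usp18 region 2 sets cMoP apart from all other libraries, and Rsad2 region 1 is highest in GMP-MoP.

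No member region differed past the test between proNeu2 and proNeu1, against 0.0758% of all regions (0.00842% higher and 0.0674% lower); of all start-site regions 0.0113% were higher and 0.0903% lower. The count was 0 by edgeR's quasi-likelihood test and by DESeq2, with 3 regions at an unadjusted p under 0.05. The smallest adjusted p was 0.403, at one end of Usp18, with 33.0 ± 5.42 CPM in proNeu1 and 21.7 ± 4.04 in proNeu2 (log2 -0.61, SE 0.248). The median log2 difference was 0.225 at receptor regions, 0.077 at effectors, -0.086 at sensors, -0.144 at GTPases and -0.154 at signal and feedback genes, and 0.023 over all members; a p that misses the threshold does not show that the groups are alike.

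In the test of any difference among the 4 groups 40 regions at 23 genes were called, 42.1% of 95 against 52.4% of all regions. By role these were 13 of 24 receptor regions, 7 of 11 at signal and feedback genes, 8 of 21 at effectors, 5 of 18 at sensors, 4 of 16 at GTPases and 3 of 5 at the others. At start sites 12 of 28 were called against 55.4% of all start-site regions. Those without a call in any of the 4 pairwise comparisons included Ifih1, at 48.2 ± 2.01 CPM in cMoP, 64.0 ± 3.26 in GMP-MoP, 54.5 ± 6.08 in proNeu1 and 41.1 ± 4.79 in proNeu2 (adjusted p = 0.0110), and Igtp, a GTPase gene, at 13.9 ± 1.69, 13.0 ± 3.17, 9.03 ± 1.26 and 5.94 ± 2.77 (adjusted p = 0.0249). The pairs of proNeu2 with cMoP and with GMP-MoP were not tested. The start sites of Ifit2, Rsad2, Isg20, Oas1a, Oas3, Eif2ak2, Gbp2, Gbp3, Irgm1, Ifi47, Ifi35, Xaf1, Ifnar2 and Trim30a had no call in it, nor had 1 of the 2 at Adar.

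A further list of 82 genes of the interferon pathway, none of them a member, gave 278 regions at 75 genes, of which 230 were tested. Between proNeu1 and cMoP 46 were higher and 49 lower (41.3%, near the 42.4% of all regions), between GMP-MoP and cMoP 5 and 3 (3.48%, against 5.45%), between GMP-MoP and proNeu1 29 and 30 (25.7%, against 24.1%), and between proNeu2 and proNeu1 none. At start sites, 48 of which were tested, proNeu1 was higher than cMoP at 10 and lower at 6, where 36.3% of all start-site regions were higher and 6.78% lower. The start of Stat3, a STAT factor of cytokine signalling, rose from 83.4 ± 10.5 to 155.5 ± 3.57 CPM (log2 0.90, adjusted p = 9.43e-09), and those of Jak2, a kinase on the gamma receptor, and Irf1, a transcription factor induced by interferon, from 43.5 ± 11.5 to 72.1 ± 3.19 and from 35.1 ± 4.82 to 66.9 ± 3.52. Socs3, a feedback inhibitor gene, and Tap1, the peptide transporter gene, rose too (13.6 ± 2.46 to 33.2 ± 4.86, and 30.7 ± 12.1 to 60.3 ± 0.865). Falls were steeper at the start of Tlr9, a sensor of microbial DNA (47.2 ± 6.26 to 9.35 ± 0.204 CPM, log2 -2.32, adjusted p = 7.68e-14), and of Ifi207, of the DNA-binding family that holds AIM2 (22.4 ± 2.72 to 1.73 ± 0.437). In GMP-MoP the start of Tlr9 had 34.8 ± 2.04 CPM, that of Stat3 90.6 ± 23.9, that of Irf1 38.8 ± 6.76 and that of Ifi207 9.10 ± 1.57. These genes were named after their values were seen.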

How the data were processed

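The deposited table holds whole-number counts of reads per ATAC-seq region for 8 libraries; the submitters' processing notes name Bowtie2 2.3.5.1, HOMER 4.11, edgeR 3.32.1 and build mm10 without giving each a role, and no source used here tells how duplicates and the transposase offset were treated. Regions were linked by distance to the nearest protein-coding gene within 50 kb in the RefSeq table of GRCm38.p6, where 38 of 40 members matched. No transcript models were used, so exons and introns were not told apart.

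Counts were fitted with edgeR 4.0.16 (R 4.3.3; quasi-likelihood F test, robust, TMM, filterByExpr with a minimum count of 10, all 8 libraries, 1 mean per group), with Benjamini-Hochberg adjustment over all 47506 tested regions and a threshold of 0.05. Alternatives used DESeq2 1.42.0, other scalings, filters and links, and single libraries left out. The scripts were tested on simulated data. With 2 libraries per group and a median of 11 to 18 counts per region, small differences were hard to detect; counting intervals and floors cover counting error only.

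Named regions were, in each pairwise comparison, the called member regions (at most 12 per direction in full), the region at or nearest a start site where a role needed it, and the 3 highest and 3 lowest tested ones by mean CPM. Over all libraries the highest of the 95 tested member regions were at the start of Ifngr1 (118 CPM), upstream of Ifnar2 (88.6) and at the start of Ifngr2 (84.2), and the lowest at Ddx58 (4.38), Zbp1 (4.31) and in the body of Ifngr2 (3.51). Promoters were shown for at most 8 members with a called start-site region. The members and gene lists were chosen with earlier results of these data known.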

Additional observations from a re-analysis of the deposited data

How the results depend on the processing

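The counts of called member regions were 28 in proNeu1 against cMoP, 4 in GMP-MoP against cMoP, 19 in GMP-MoP against proNeu1, 0 in proNeu2 against proNeu1 and 40 for any difference among the 4 groups. DESeq2 gave 14, 0, 2, 0 and 17, and over all regions 9242, 37, 2135, 1 and 12939 against 20162, 2590, 11428, 36 and 24904; the cause was not tested. Keeping only the 34 regions within 1 kb of a gene end, which tests fewer regions, gave 9, 0, 8, 0 and 14, and asking for at least 2 fold gave 16 in proNeu1 against cMoP and 9 in GMP-MoP against proNeu1. Leaving out each library in turn gave 20 to 30, 1 to 4, 8 to 20, 0 and 34 to 43; the lowest counts in the GMP-MoP comparisons, 1 and 8, came without GMP-MoP replicate 2. Without cMoP replicate 2 GMP-MoP against cMoP had 2 calls, and without proNeu1 replicate 2 GMP-MoP against proNeu1 had 10. An arm left with 1 library is assumed to vary like the others. Among called member regions the only direction that reversed was at the start of Ifngr2 in proNeu1 against cMoP with loess offsets (log2 -0.02, adjusted p = 0.92); over its alternatives the adjusted p ran from 0.00165 to 0.92. With the replicate number as a block (replicate block) the counts were 29, 4, 20, 0 and 41 and no call was lost; same-numbered libraries did not deviate together (correlations -0.011 to 0.0793), so the numbers were not taken as pairing. Of the 28, 4 and 19 called regions 12, 0 and 2 kept their call in every alternative fit. The fit with only the compared groups and the 2 fold threshold were not run for the joint test.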

Other observations

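Regions within reach of a member gene but linked to a nearer gene held some of the larger differences around these loci. Next to Trim30a, the start of its relative Trim30c (mm10 chr7:104400346-104401657) had 38.3 ± 10.1 CPM in cMoP, 20.5 ± 5.43 in GMP-MoP, 4.90 ± 3.09 in proNeu1 and 6.44 ± 3.09 in proNeu2. It was lower in proNeu1 than in cMoP (edgeR, log2 -2.96, adjusted p = 1.8e-14) and in GMP-MoP than in cMoP (log2 -0.87, adjusted p = 0.0114), while both Trim30a start sites were not called. Near Isg20, a region linked to Aen, an apoptosis-related exonuclease gene (chr7:78903020-78904106), had 2.14 ± 0.781 CPM in cMoP, 6.83 ± 1.64 in GMP-MoP, 21.1 ± 3.77 in proNeu1 and 24.4 ± 2.53 in proNeu2 (proNeu1 against cMoP, log2 3.26, adjusted p = 7.49e-11). Near Isg15, the start of Agrn, the agrin gene, rose from 58.9 ± 12.4 CPM in cMoP to 94.5 ± 18.6 in proNeu1 (log2 0.68, adjusted p = 0.000175).

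The start regions of 2 member genes without a linked region were not called: that over the start of Ifit1, linked to Ifit1bl2, had 7.46 CPM in cMoP and 5.56 in proNeu1 (adjusted p = 0.498), and that shared by Dtx3l and Parp9 had 52.3 and 53.6 (adjusted p = 0.881). These regions were picked after their values were seen.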
